A study of Mus musculus with 6 samples.

Results

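Transforming growth factor beta (TGF-beta) is made, stored and sensed by a small set of proteins, and the RNA of 10 of their genes was compared between the inner bone surface and the flushed marrow of the mouse femur. The genes were the ligands Tgfb1, Tgfb2 and Tgfb3, the latent binding proteins Ltbp1, Ltbp2 and Ltbp3, the receptors Tgfbr1, Tgfbr2 and Tgfbr3, and Tgfbi, which encodes a secreted matrix protein named for its induction by TGF-beta. They were chosen by name, with earlier results of these data known. Every probe set annotated to 1 of these symbols was taken. This gave 27 of the 45037 probe sets that are not Affymetrix controls, and 10 of 18193 genes. Endosteal RNA rose for Tgfb3, Ltbp2, Ltbp3 and Tgfbr3, and it fell for Tgfb1 and Tgfbi. On a scale set on poly-A controls, Tgfb1 was at -0.12 and Tgfbi at 0.23 (log2) and neither passed. In a fit with the letter of the array as a block, only Tgfb3 and Ltbp3 passed, both as rises. Tgfbr3 and Tgfbi also lost their calls when most single arrays were left out. Ltbp1, Tgfb2, Tgfbr1 and Tgfbr2 did not pass the main test.

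The study asked how RNA at the endosteum, where haematopoietic stem cells lodge, differs from that of the central marrow. The samples came from 3 male C57BL/6 mice, 8 weeks old, that had received saline into the peritoneum, and no group had another treatment or genotype. Per the labels' protocols, the femoral shaft was cleaned of muscle and periosteum, its ends were cut away and its marrow was flushed out with buffer, and the pelleted flushed cells gave the central RNA. Trizol, a phenol-based lysis reagent, was then run through the empty shaft and gave the endosteal RNA, so this group holds RNA of all cells left behind by the flush and lysed in place, whereas central cells were first suspended and spun down. Each of the 6 RNA samples was hybridised to 1 Affymetrix array, with 3 arrays, named A, B and C, for each region. That a letter marks 1 mouse in both regions is not stated. These are bulk samples, in which fewer cells of a type and less RNA per cell cannot be told apart.

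TGF-beta is secreted as an inactive complex in which its own propeptide stays wrapped around the growth factor, and most of these complexes are tethered to the matrix by a latent TGF-beta binding protein. Integrins, proteases or an acid milieu release the active ligand, which binds the type II receptor, Tgfbr2, and through it the type I receptor, Tgfbr1, whose kinase phosphorylates Smad2 and Smad3. In bone, the matrix is a large store of latent TGF-beta that resorbing osteoclasts can release, and in marrow, TGF-beta is known to hold haematopoietic stem cells in quiescence.

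The 250 bases before the annotated start of 4 genes are shown because these genes passed the test in opposite directions, Tgfb1 and Tgfbi lower and Ltbp2 and Ltbp3 higher in endosteal RNA. They are from RefSeq on build GRCm38.p6, each 5′ to 3′ on its gene's own strand, and the search covered both strands. Capitals mark CAGAC or its reverse complement, the core that Smad proteins bind, and GGGCGG or its reverse complement, the GC box.
Tgfb1, chr7:25686752-25687001, plus strand: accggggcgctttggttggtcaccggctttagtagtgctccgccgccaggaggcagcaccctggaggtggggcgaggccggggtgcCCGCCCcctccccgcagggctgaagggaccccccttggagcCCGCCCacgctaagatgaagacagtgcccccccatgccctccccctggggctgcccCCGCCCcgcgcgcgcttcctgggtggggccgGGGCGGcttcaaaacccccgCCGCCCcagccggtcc
Tgfbi, chr13:56609336-56609585, plus strand: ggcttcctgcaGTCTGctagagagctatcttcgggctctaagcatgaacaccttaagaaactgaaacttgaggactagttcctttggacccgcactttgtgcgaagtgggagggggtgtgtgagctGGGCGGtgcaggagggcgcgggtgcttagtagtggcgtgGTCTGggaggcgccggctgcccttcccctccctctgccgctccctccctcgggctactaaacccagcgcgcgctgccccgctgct
Ltbp2, chr12:84876492-84876741, minus strand: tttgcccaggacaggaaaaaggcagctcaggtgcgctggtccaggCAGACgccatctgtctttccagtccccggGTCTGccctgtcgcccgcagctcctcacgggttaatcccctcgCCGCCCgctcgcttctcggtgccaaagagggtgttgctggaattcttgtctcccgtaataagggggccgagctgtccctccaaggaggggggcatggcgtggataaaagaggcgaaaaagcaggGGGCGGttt
Ltbp3, chr19:5740650-5740899, plus strand: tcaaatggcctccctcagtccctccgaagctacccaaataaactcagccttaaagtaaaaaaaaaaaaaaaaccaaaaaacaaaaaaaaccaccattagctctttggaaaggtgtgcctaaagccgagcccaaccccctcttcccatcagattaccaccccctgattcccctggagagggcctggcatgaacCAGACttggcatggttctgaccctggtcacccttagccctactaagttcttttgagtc
The Tgfb1 window, with 75.2% G and C, held 5 GC boxes and 0 CAGAC matches, whereas the Ltbp3 window, with 47.2% G and C, held 0 GC boxes and 1 CAGAC. The Ltbp2 window held 2 of each, and the Tgfbi window held 2 CAGAC and 1 GC box. Of 32536 promoter windows of this length, 42.2% held CAGAC and 33.0% held GGGCGG, so either motif is common. Of the 10 genes, 8 (all but Tgfb3 and Tgfbr3) were matched by symbol, to 10 such windows, of which 8 held CAGAC and 4 held GGGCGG. A match is a description of the letters and not a binding site.

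The values are the deposited probe set signals, on a linear intensity scale, and each gene is represented by its probe set with the highest mean signal. Changes are endosteal minus central means of log2(signal + 16), a scale that understates the change of low signals, with the standard error (SE) and the adjusted p of limma over all 18193 genes, and a gene is said to rise or fall where that p was below 0.05. The block value is the adjusted p of limma with the letter of the array as a block, given for each of the 10 genes whose call it ends, and as counts for lists of other genes. Means are given with the SD over 3 arrays. A signal is called low here when it lies below 115, the median over all probe sets and arrays. Of all genes, 7.92% rose and 4.02% fell, 11.9% in either direction, against 4 and 2 of the 10 genes. Brighter genes passed more often. In a fit limited to the 9096 genes above the median level, 1595 rose and 1725 fell. All of the 10 genes but Tgfb2 and Tgfb3 were in that fit, and 5 rose and 2 fell. With the letter as a block, 0.786% of all genes rose and 0.033% fell, and of the 10 genes 2 rose, Tgfb3 and Ltbp3 (block values 0.0455 and 0.0499), and 0 fell. The median change was 1.13 over the 10 genes and 0.10 over all genes. The arrays of the regions did not overlap for 9 of the 10 genes, 7 with higher and 2 with lower endosteal signals, where 22.3% and 15.4% of all genes did so. The split over all genes depended on the scale, since 66.3% of calls were increases as deposited and 34.7% after each array was centred on its median (951 increases and 1786 decreases); the 4 and 2 calls among the 10 genes were as many on both scales.

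**Figure D1:**
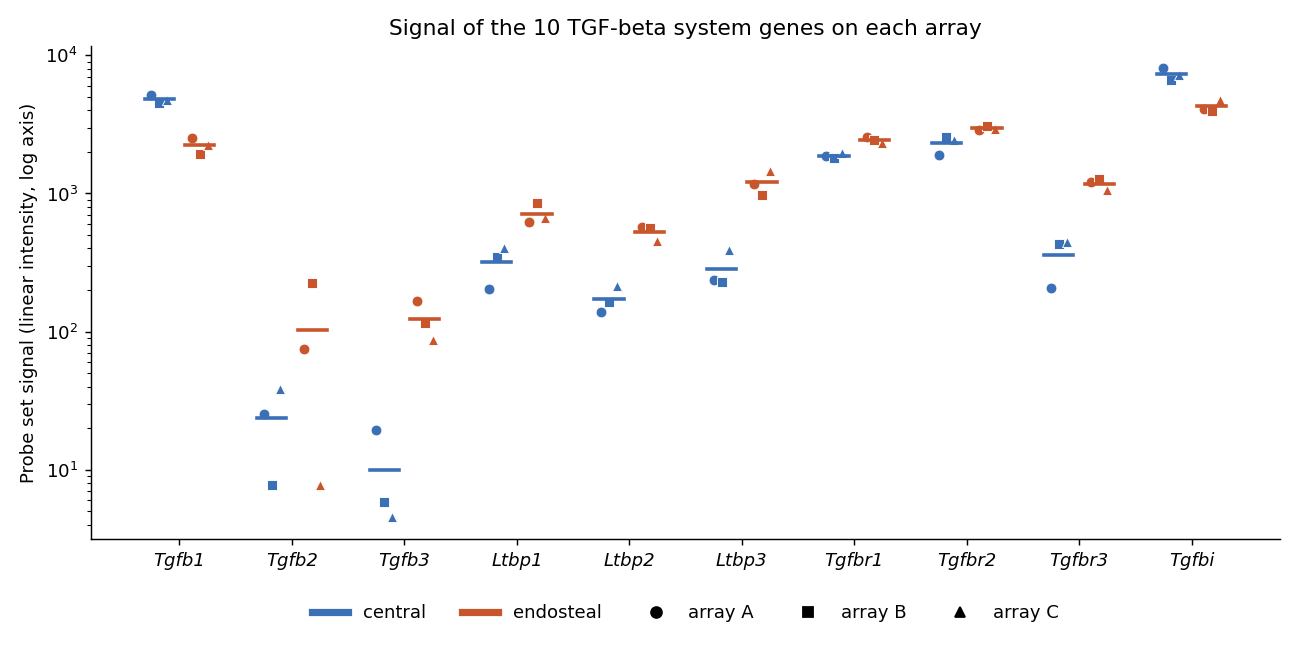
Probe set signal (linear intensity, log axis) of the 10 genes on each of 3 central (blue) and 3 endosteal (orange) arrays, with the letter of the array as symbol and a bar at the mean of each region. The blue symbols lie above the orange ones for Tgfb1 and Tgfbi, the symbols of Tgfb2 overlap, and for the other 7 genes every orange symbol lies above every blue one. On a scale set on the poly-A controls, Tgfb1 differed by -0.12 and Tgfbi by 0.23.

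Of the 3 ligands, 1 rose, 1 fell and 1 did not pass. Tgfb1, a ligand that blood cells and platelets make (probe set 1420653_at), gave 5151, 4554 and 4789 in central RNA of arrays A to C, against 2516, 1940 and 2235 in endosteal RNA. Every endosteal array lay below every central one. The means were 4831 ± 301 and 2230 ± 288, which is 2.17-fold lower, a log2 change of -1.12 (SE 0.15, adjusted p = 0.0126, block value 0.0603) that was -0.12 on the poly-A scale (adjusted p = 0.617). Its other probe set, 1445360_at, pointed the same way, with 335 ± 73.3 and 182 ± 6.78, but did not pass (log2 change -0.80, adjusted p = 0.0789 over all probe sets).

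Tgfb3, a ligand of mesenchymal tissues (probe set 1417455_at), had central signals of 19.3, 5.88 and 4.55 and endosteal signals of 167, 115 and 86.8. All central signals were low, and every endosteal array lay above them (the lowest, C, also below 115). The log2 change was 2.43 (SE 0.31, adjusted p = 0.0114), and it ranged from 1.32 with pseudocount 64 to 3.70 with pseudocount 1, because the size of a rise from so low a signal depends on the pseudocount. The ratio of the mean signals, the study's own comparison, was 3.63 on the log2 scale.

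Tgfb2, the third ligand, had 4 probe sets. The brightest (1450923_at) gave 25.2, 7.82 and 38.4 on central arrays A to C, against 75.2, 225 and 7.77 on the endosteal ones. Endosteal arrays A and B lay above the central arrays, but endosteal C was as low as central B. The log2 difference of 1.10 (SE 0.87) did not pass (adjusted p = 0.462), and without endosteal array B it was 0.31. Of the 4 probe sets, 2 pointed up and 2 down, the latter low on all arrays, and none passed over all probe sets. The endosteal signals of the brightest spread widely, at 103 ± 111, and a change of Tgfb2 was not detectable with these arrays.

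Of the 3 latent binding proteins, 2 rose, and Ltbp1 did not pass. Ltbp3, which carries latent TGF-beta and is needed for normal bone (probe set 1438312_s_at), read 235, 230 and 387 on the central arrays A to C against 1168, 975 and 1466 on the endosteal ones. The regions did not overlap, and the means of 284 ± 89.3 and 1203 ± 247 differed by 2.04 on the log2 scale (SE 0.26, adjusted p = 0.0117). Of its 4 probe sets, all 4 pointed up, and 2 passed over all probe sets, 1438312_s_at and, at 2.35, 1418049_at. The suffix of the former is the one given to probe sets that can match several transcripts.

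Ltbp2 is a member of the same family that does not bind latent TGF-beta covalently and lies along elastic microfibrils (probe set 1418061_at). On central arrays A to C it read 140, 164 and 215, and on the endosteal ones 571, 563 and 451, with every endosteal array above every central one. The log2 change was 1.54 (SE 0.20, adjusted p = 0.0117, block value 0.0746), and without central array B the adjusted p was 0.0525.

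Ltbp1, the binder that links the complex to fibronectin and fibrillin (probe set 1448870_at), read 205, 347 and 400 on the central arrays A to C against 620, 854 and 666 on the endosteal ones. The arrays did not overlap, yet the log2 difference of 1.17 (SE 0.28) missed the threshold (adjusted p = 0.0528), and over alternatives the adjusted p ran from 0.00382 to 0.360. Its other probe sets were low on all arrays and differed by 0.56 and -0.27.

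Of the 3 receptors, 1 rose. Tgfbr3, betaglycan, is a co-receptor with no kinase that presents the ligand, in particular TGF-beta 2, to the type II receptor (probe set 1433795_at). On central arrays A to C it read 206, 427 and 446, and on the endosteal ones 1212, 1266 and 1066. The arrays of the regions did not overlap, and the log2 change was 1.74 (SE 0.31, adjusted p = 0.0264, block value 0.0830). Its second probe set did not pass (0.42, adjusted p = 0.511), and the mean of both differed by 1.08 (adjusted p = 0.0570). The call held without central array A, but without any 1 of the other 5 arrays the adjusted p was 0.0527 to 0.0775.

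Tgfbr1, the type I receptor kinase (probe set 1420895_at), read 1864, 1814 and 1964 on the central arrays A to C against 2555, 2453 and 2316 on the endosteal ones, a log2 difference of 0.37 (SE 0.12) that did not pass (adjusted p = 0.0985). A second, dimmer probe set, 1420894_at, read 105, 121 and 113 in the centre and 200, 271 and 321 at the endosteum, a rise of 1.10 (adjusted p = 0.0480 over all probe sets). The remaining one differed by 0.79 (adjusted p = 0.0641), and the mean of the 3 differed by 0.75 (adjusted p = 0.0311). Tgfbr2, the type II receptor (probe set 1426397_at), read 1909, 2585 and 2419 on the central arrays A to C against 2893, 3091 and 2911 on the endosteal ones, a log2 difference of 0.37 (SE 0.16) that did not pass (adjusted p = 0.185). Every endosteal array lay above every central one for the brightest probe set of both receptors. For Tgfbr2 1425444_a_at, which differed by 0.22, the regions overlapped (adjusted p = 0.580 over all probe sets). Its low probe set 1422019_at differed by 0.77 and did not pass either (adjusted p = 0.158). Within an array, the log2 signal of Tgfbr3 minus that of Tgfbr1 was -3.08 to -2.05 on central and -1.11 to -0.95 on endosteal arrays. Minus that of Tgfbr2 it was -3.12 to -2.40 and -1.44 to -1.24. Tgfbr3 thus read below both in both regions, and each difference changed by 1.37, with no overlap between the regions. This holds for the brightest probe set of each gene. The second Tgfbr3 probe set differed by 0.42, within the ranges of the Tgfbr1 (0.37 to 1.10) and Tgfbr2 (0.22 to 0.77) probe sets. The mean of all probe sets differed by 1.08 for Tgfbr3, 0.75 for Tgfbr1 and 0.46 for Tgfbr2.

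Tgfbi encodes a matrix protein with fasciclin domains that macrophages and monocytes make in large amounts. Its brightest probe set, 1448123_s_at, read 8050, 6656 and 7175 on the central arrays A to C against 4117, 3967 and 4738 on the endosteal ones. Every endosteal array lay below every central one, and the means of 7293 ± 705 and 4274 ± 409 gave a log2 change of -0.77 (SE 0.14, adjusted p = 0.0286, block value 0.0913), which was 0.23 on the poly-A scale (adjusted p = 0.282). All 4 of its probe sets pointed down, by 0.41 to 1.11 on the log2 scale, with no overlap between the regions. One, 1415871_at, with 5213, 4110 and 4248 on the central and 2224, 2126 and 1900 on the endosteal arrays, passed over all probe sets (log2 change -1.11, adjusted p = 0.0288). At the gene level the call held without endosteal array C (adjusted p = 0.0488), but without any 1 of the other 5 arrays the adjusted p was 0.0739 to 0.0883.

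**Figure D2:**
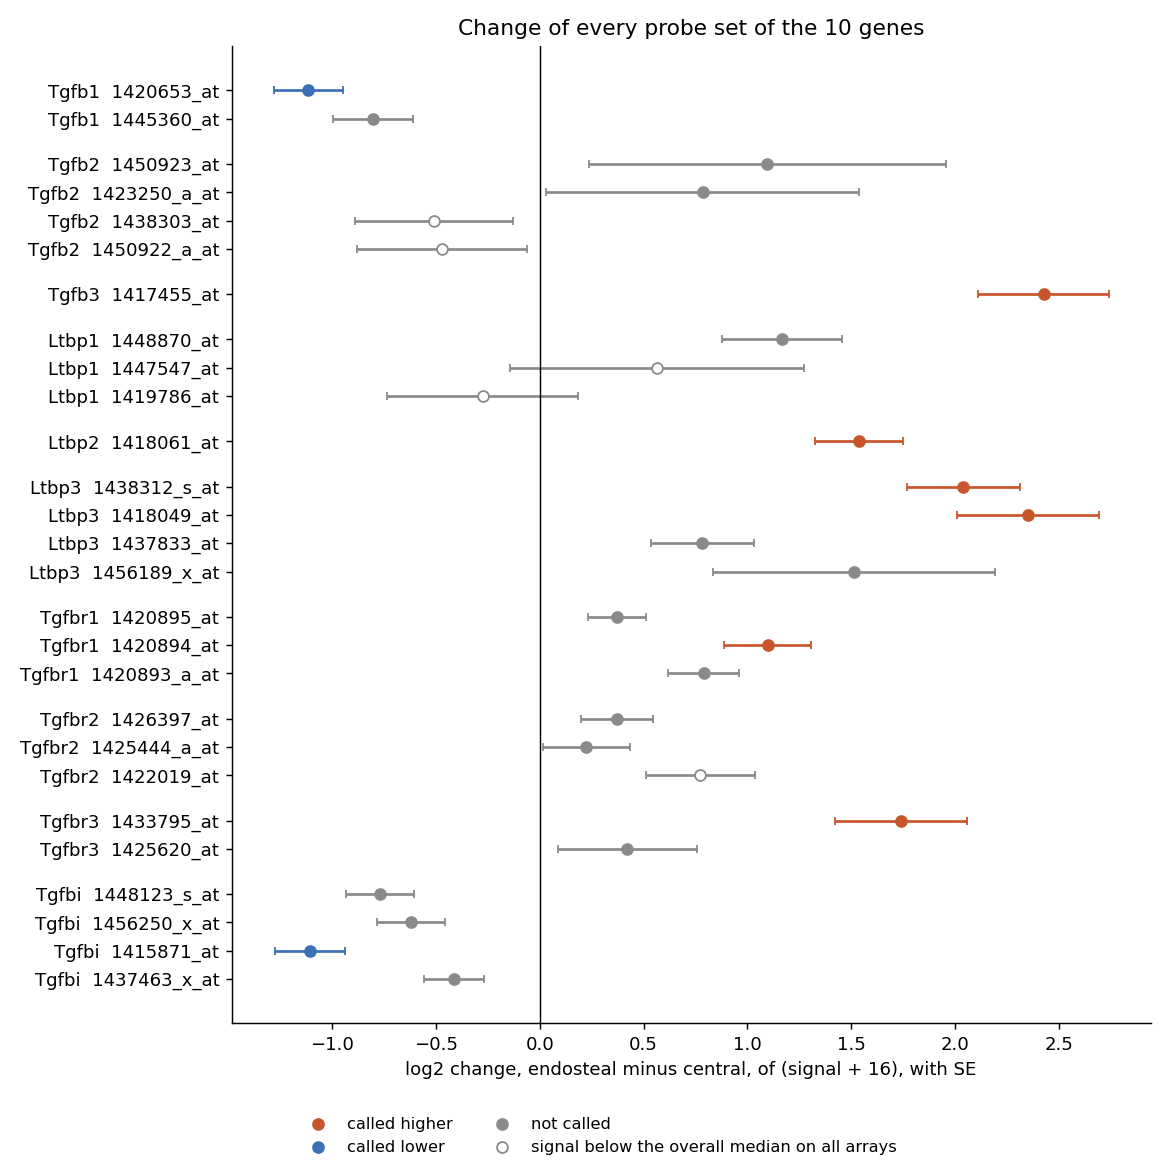
Log2 change, endosteal minus central, of log2(signal + 16) for the 27 probe sets of the 10 genes, with SE; orange marks probe sets that rose, blue those that fell and grey those that did not pass over all 45037 probe sets, and open symbols those below a signal of 115 on every array. The 2 probe sets of Tgfb1 and the 4 of Tgfbi lie below 0, the 4 of Ltbp3 above it, and those of Tgfb2 on both sides; on the poly-A control scale, all 4 of Tgfbi but 1415871_at lay above 0.

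Of the 27 probe sets, 6 rose and 2 fell, where 3.21% of all probe sets rose and 1.29% fell, 4.5% in either direction. The 6 were 1 each of Tgfb3, Ltbp2, Tgfbr1 and Tgfbr3 and 2 of Ltbp3. Arrays of the regions did not overlap for 12 probe sets that were higher and 6 that were lower, where 17.8% and 13.6% of all probe sets did so. With the letter as a block, 0 of the 27 passed at this level in limma, and 0 of all 45037, of which 5532 were higher and 3693 lower at an unadjusted p below 0.05. Without any 1 of the 6 arrays, 0 to 3 of the 27 rose and 0 fell, where 210 to 868 of all 45037 probe sets rose and 5 to 181 fell.

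Of the other genes, 6 (Tgfb3, Ltbp1, Ltbp2, Ltbp3, Tgfbr1 and Tgfbr2) were also set against Tgfb1 within each array. In this comparison 1 scale factor per array cancels except for the pseudocount. Tgfb2, Tgfbr3 and Tgfbi were not set against Tgfb1. The log2 signal of Ltbp3 minus that of Tgfb1 was -4.36 to -3.57 on central and -1.10 to -0.60 on endosteal arrays. Ltbp3 thus read below Tgfb1 in both regions, and closer to it in endosteal RNA. The change was 3.16, with SDs between arrays of 0.42 in central and 0.26 in endosteal RNA. It was 3.54 for Tgfb3, 2.65 for Ltbp2 and 2.28 for Ltbp1, which also read below Tgfb1 on every array. For Tgfbr1 and Tgfbr2 the change was 1.49 each, from below Tgfb1 on central to above it on endosteal arrays. In these 6 pairs the endosteal values lay beyond the central ones, which was fixed in advance and adds no support. Every endosteal array already lay above every central one for the 6 genes, and below for Tgfb1.

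A scale set on the probe sets for poly-A spike controls changed the values of the 2 genes that fell. These controls had a mean log2 signal of 10.34 to 10.71 on central and 9.47 to 9.59 on endosteal arrays. On that scale the median change of all genes was 1.10 instead of 0.10, Tgfb1 and Tgfbi did not pass, and 7 of the 10 genes rose and 0 fell, where 12226 of 18193 genes rose and 21 fell. Relative to the median of all genes, Tgfb1 was at -1.22 and Tgfbi at -0.87 on the deposited scale. Of all genes, 1.71% had a more negative change than Tgfb1 and 1.45% a larger one than Tgfb3.

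**Figure D3:**
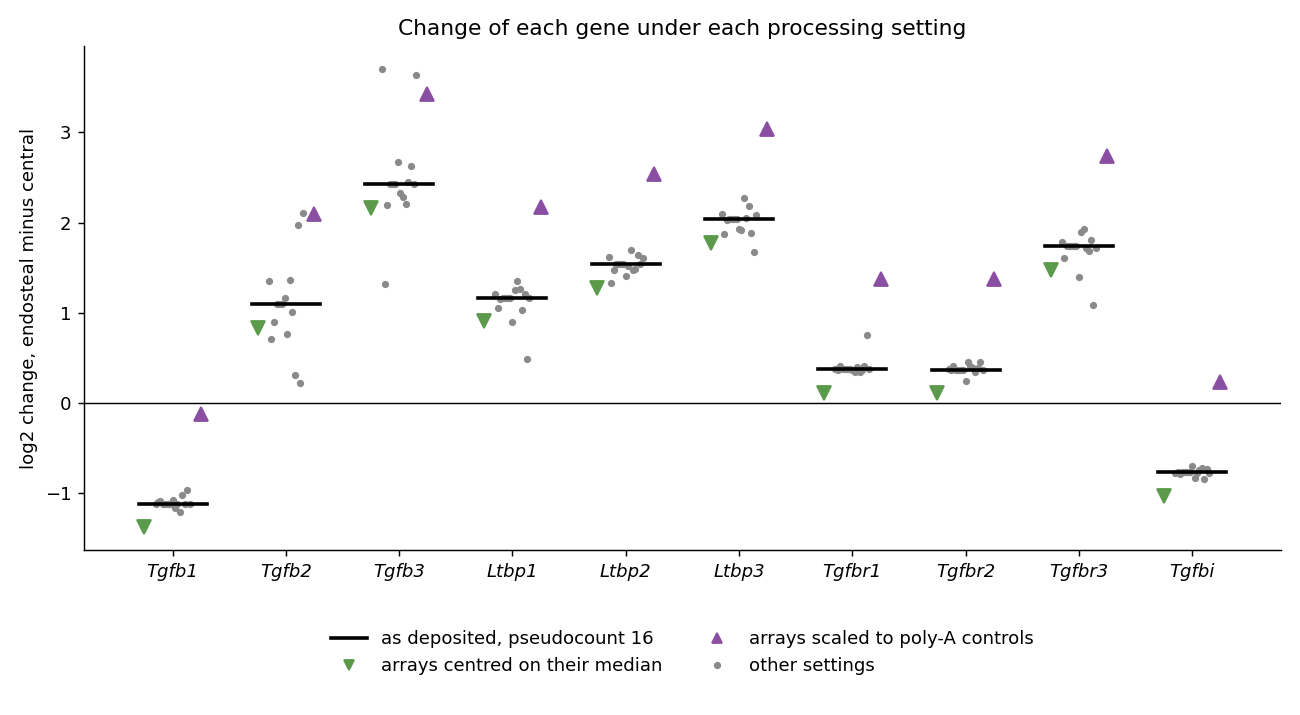
Log2 change of each of the 10 genes, endosteal minus central, under each processing setting; the bar is the value as deposited with pseudocount 16, the green and purple triangles are arrays centred on their median and scaled to the poly-A controls, and grey points are the other settings. Tgfb1 stays below 0 in all settings, at -0.12 on the poly-A scale, and Tgfbi reaches 0.23 there.

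Around these 10 genes, 4 lists of further TGF-beta pathway genes held 35 measured genes, of which 12 rose and 0 fell, against 7.92% and 4.02% of all genes. Their median change was 0.32. After median centring 11 rose and 4 fell, where 951 of all 18193 genes rose and 1786 fell. On the poly-A scale 28 rose and 0 fell, where 12226 of all genes rose and 21 fell. Without central B, central C or endosteal B, 5, 6 and 5 of the 35 rose, and with the letter as a block 3 rose, Postn, Ccn2 and Smad6, and 0 fell; the block values of the other 9 ran from 0.0502 (Pmepa1) to 0.135 (Fbn2). Of 10 genes of storage and activation, 4 rose. The integrin chains Itgav, Itgb5 and Itgb8, which can release latent TGF-beta, rose by 1.22, 0.99 and 1.07, and Fbn2, a fibrillin, by 1.00 (adjusted p = 0.0499). Itgb8 was low on all 6 arrays, at 16.2 ± 2.30 in central and 52.2 ± 13.2 in endosteal RNA. Fbn2 was low in central RNA, at 35.7 ± 8.89, and its endosteal mean of 88.4 ± 26.5 was low too. After quantile normalisation neither passed (adjusted p = 0.0591 for Itgb8 and 0.156 for Fbn2), and after median centring Fbn2 did not (adjusted p = 0.0883). The adjusted p of Itgav was 0.0103, of Itgb5 0.0187 and of Itgb8 0.0218, and the mean signal of Itgav was 1112 ± 74.4 in central and 2631 ± 353 in endosteal RNA. The protease gene Furin, which cleaves the propeptide, was at -0.92 (adjusted p = 0.0709), Thbs1, the activator thrombospondin 1, at 1.16 (adjusted p = 0.0812) and Ltbp4 at 1.46 (adjusted p = 0.171), and none of the 3 passed. On the poly-A scale Furin was at 0.08.

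Of 5 co-receptors and other receptors, 2 rose, Cd109, a TGF-beta co-receptor, by 2.95 (adjusted p = 0.0356) and Bambi, a decoy receptor, by 1.54 (adjusted p = 0.0136). The mean signal of Cd109 was 51.1 ± 39.7 in central and 419 ± 72.8 in endosteal RNA. The endothelial receptor genes Eng and Acvrl1 were at 0.59 and -0.97 and did not pass (adjusted p = 0.0623 and 0.0857), Acvrl1 being at 0.03 on the poly-A scale. Of 13 Smads and regulators, 1 rose, the inhibitory Smad6, which is known as a brake on bone morphogenetic protein signals, by 2.03 from a low signal of 52.0 ± 20.1 to 260 ± 73.6 (adjusted p = 0.0168). The TGF-beta effectors Smad2, Smad3 and Smad4 were at -0.34, -0.15 and -0.26 (adjusted p = 0.214, 0.520 and 0.302), and Smad7, the inhibitory Smad of the TGF-beta branch, at -0.53 (adjusted p = 0.237). The median of the 13 was -0.23, and it was 0.77 on the poly-A scale, where the median of all genes was 1.10. On that scale 10 of the 13 rose, where 12226 of all 18193 genes rose.

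Of 7 measured genes that TGF-beta is known to induce, 5 rose and 0 fell, among them the 2 largest rises of the 4 lists. Postn, which encodes periostin and is a paralog of Tgfbi, read 34.0, 34.7 and 78.6 on the central arrays A to C against 1852, 1738 and 2196 on the endosteal ones, a log2 change of 4.96 (SE 0.29, adjusted p = 0.00209). Its 6 signals showed no overlap, and its direction is opposite to that of Tgfbi. Ccn2, connective tissue growth factor, rose by 3.96, Pmepa1, a feedback inhibitor of Smad signalling, by 1.85, the focal adhesion gene Tgfb1i1 by 1.16 and Tsc22d1, a leucine zipper gene, by 1.11, with adjusted p of 0.0101, 0.00971, 0.0187 and 0.0381. The mean signal of Ccn2 was 94.7 ± 53.1 in central and 1644 ± 579 in endosteal RNA. Klf10 and Tgif1, 2 transcription factors, were at -0.23 and -0.10 and did not pass. The RNA of these genes is not a measure of Smad phosphorylation, which arrays do not read.

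**Figure D4:**
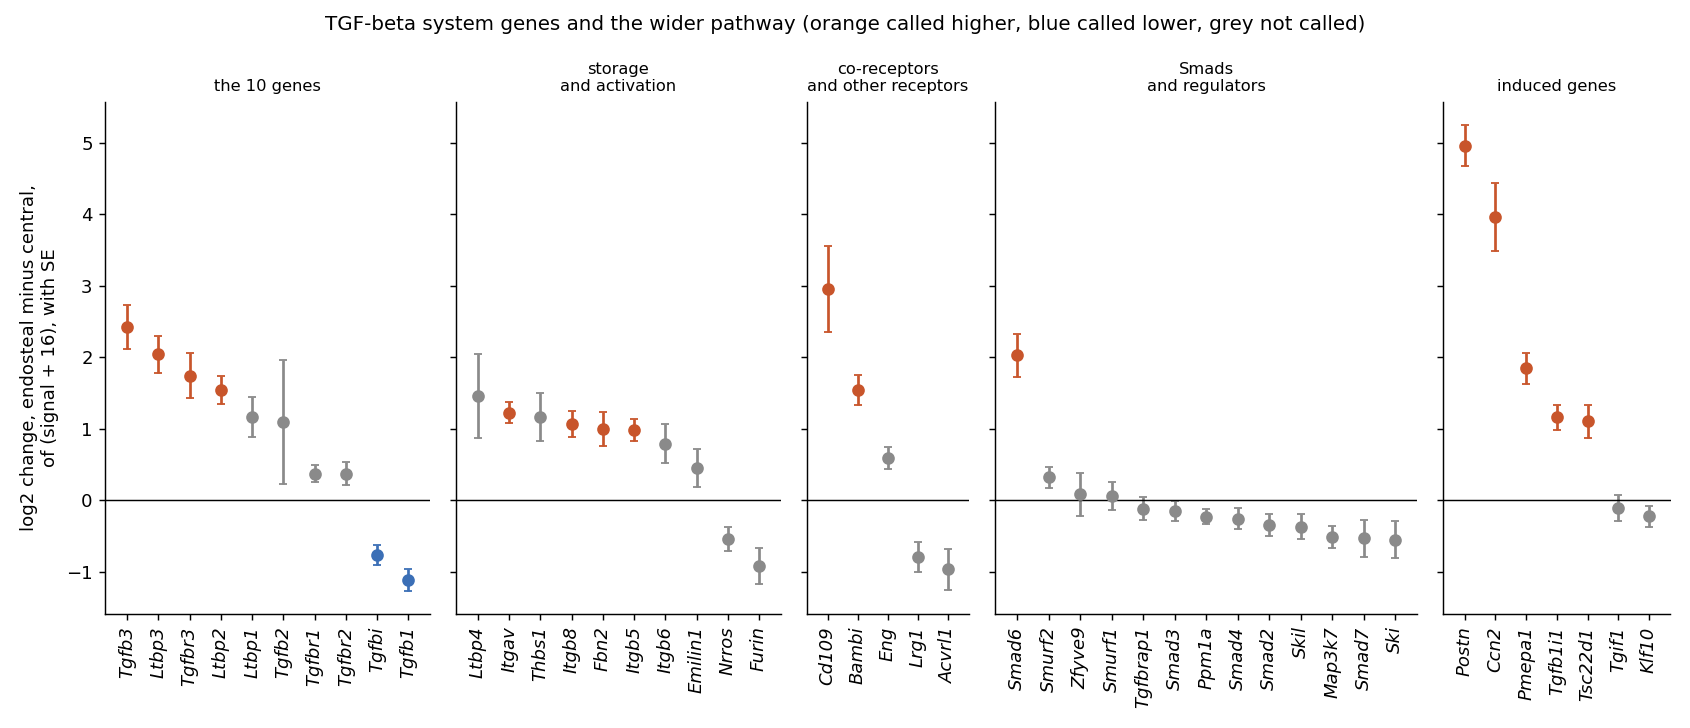
Log2 change, endosteal minus central, with SE, of the 10 genes and of 35 further TGF-beta pathway genes in 4 lists, ordered by size within each panel. Orange points rose, blue fell and grey did not pass; Postn at 4.96 and Ccn2 at 3.96 are the largest, and 1 of 13 Smads and regulators rose.

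The endosteal arrays also carried more RNA of bone, muscle, stroma and vessels, and less of B cells, and the part of these markers in the results above was not tested. Of 6 bone matrix and osteocyte genes, among them the collagen genes Col1a1 and Col1a2, 5 rose (median 4.65), and their summed signal was 1499 to 1972 in central and 63081 to 77768 in endosteal RNA. Skeletal muscle genes such as Myl1 and Acta1 rose in 6 of 6 cases (median 7.14), from 225 to 441 summed in central to 48194 to 94407 in endosteal RNA, in bones that had been rubbed to remove muscle. Stromal genes, with Cxcl12 the brightest, rose in 4 of 4 (median 2.66, summed signal 2351 to 4656 against 18706 to 22702).

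Of 6 endothelial genes 4 rose (median 2.12, summed signal 747 to 988 against 2239 to 2604), of 3 adipocyte genes 2 (median 2.53, 856 to 2903 against 8260 to 9998), of 4 cartilage genes 1 (median 1.34, 115 to 157 against 1122 to 2369) and of 5 osteoclast genes 4 (median 1.79, 1736 to 2335 against 22277 to 26236). The osteoclast protease gene Ctsk was the largest of the last list, at 5.57. Megakaryocytes and platelets are known to store TGF-beta 1, and 4 of 7 of their genes rose (median 1.20, summed signal 27544 to 53030 against 95642 to 112864). Pf4, platelet factor 4, rose by 1.89 (block value 0.0696), but the brightest gene of this list, Ppbp, at 1.20, did not pass (adjusted p = 0.0542). The summed platelet signals of the regions did not overlap and were higher in endosteal RNA. A link of the platelet genes to the Tgfb1 values was not tested. With the letter as a block 0 of the 7 platelet genes passed, and Tgfb1 did not pass either. In that fit 6 of 6 muscle, 4 of 6 bone, 2 of 5 osteoclast, 1 of 4 stromal, 1 of 6 endothelial, 1 of 4 cartilage and 0 of 3 adipocyte genes rose.

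Of 5 B lymphocyte genes, 3 fell, Cd79a, Cd79b and Ms4a1 (median -1.26), and their summed signal was 12516 to 18780 in central and 4093 to 7885 in endosteal RNA; on the poly-A scale the median was -0.26 and 0 of the 5 fell. Of 2 monocyte genes 1 fell, Ccr2 by 0.88, which was 0.12 on the poly-A scale, with a summed signal of 18842 to 24351 against 11856 to 15754. Of 6 macrophage genes 2 rose (median 0.74, 14977 to 15898 against 21901 to 25448), and of 6 neutrophil genes 2 rose and 1 fell (median 0.54, 218151 to 243646 against 303123 to 309238), but after quantile normalisation 0 rose and 1 fell and the neutrophil median was -0.064. Of 4 erythroid genes (median -0.35, 31360 to 39270 against 16344 to 27928) and 5 T and NK genes (median -0.12, 614 to 684 against 484 to 858), 0 passed in limma. Both medians were above 0 on the poly-A scale, at 0.65 and 0.88, where the median of all genes was 1.10. At an unadjusted p below 0.05, 2 of the erythroid genes, Alas2 and Epor, were lower, and 0 of the T and NK genes passed. With the letter as a block, 1 of the 6 macrophage genes rose, and 0 of the B lymphocyte, monocyte and neutrophil genes passed (Cd79a 0.0502, Cd79b 0.0573, Ms4a1 0.0652 and Ccr2 0.0685). Of all these markers, 0 were listed at 0.

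**Figure D5:**
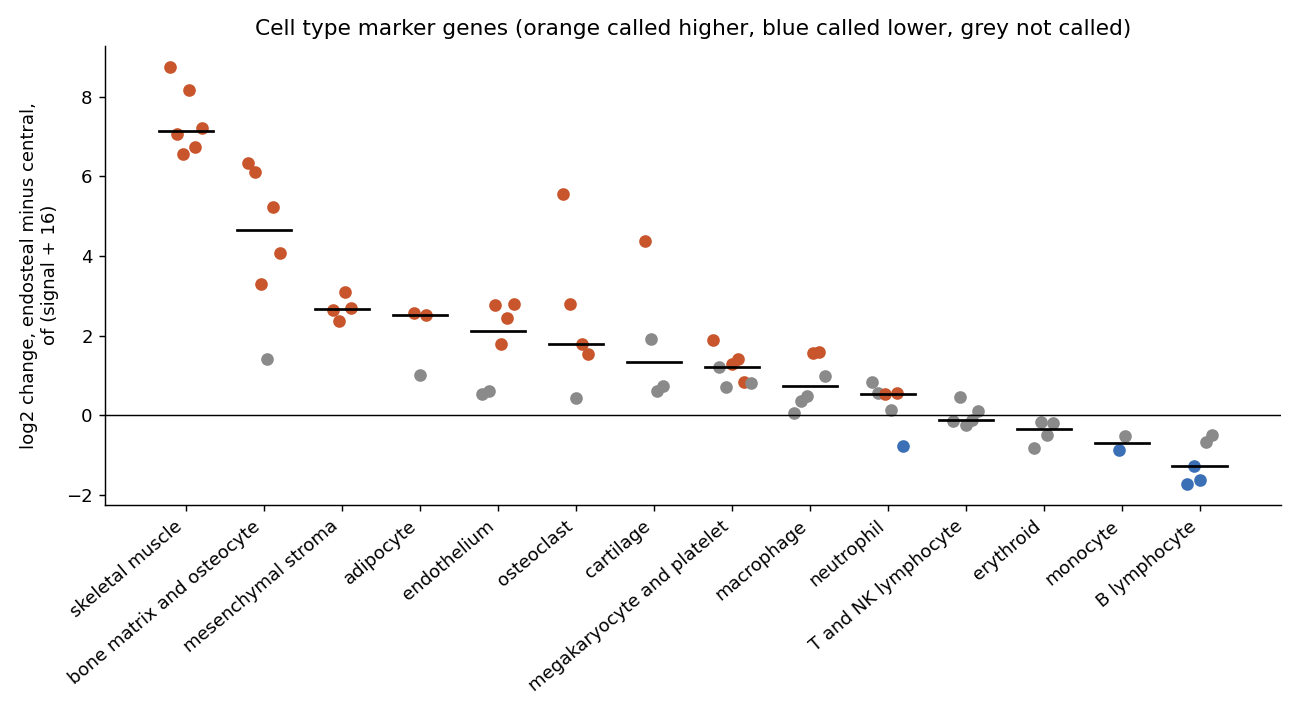
Log2 change, endosteal minus central, of each marker gene by cell type, with the list's median as a bar; orange rose, blue fell, grey did not pass. Muscle (median 7.14) and bone (4.65) stand highest, and B lymphocytes (-1.26) lowest. On the poly-A scale the medians of monocyte, erythroid and T and NK genes lie above 0, and that of all genes at 1.10.

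The genes whose profile over the 6 arrays was most like that of Tgfb3 were Cryab, Nupr1, Mis18a, Ndufa13 and Arrdc4, with Pearson's r from 0.996 to 0.999, among 9096 genes above the median level. For Tgfb1 they were Sh2b3, Ccni, Rcor1, Bag6 and Dock2, with r from 0.998 to 0.999. Over 6 arrays in 2 regions such values are a description only, and 22 and 35 genes had an r above 0.99.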

How the data were processed

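RNA was measured on 6 Affymetrix arrays, 3 central and 3 endosteal, prepared with a one-cycle kit per the labels' protocols. The authors deposited 1 linear signal intensity per probe set. How probes were summarised and whether background was subtracted is not given in the sources used here. Every array had a trimmed mean of 500.0, as after scaling by 1 factor per array. Array medians were 96.9 to 131, and 16.0% to 20.2% of probe sets lay below 16. With 3 arrays a region, precision is limited by their number.

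Probe sets were named from the platform annotation (34945 with 1 gene). A gene with several was represented by the one with the highest mean. The test was that of limma 3.58.1 (R 4.3.3) on log2(deposited signal + 16), with region as the only term and Benjamini-Hochberg adjustment over 18193 genes or 45037 probe sets. On simulated arrays, 31.3% of genes changed by 1 and 56.3% of those changed by 2 on the log2 scale were recovered, and 3.77% of calls were false. The simulated noise was normal and independent between genes, and fewer genes were changed than the 11.9% called in the data. Recovery after adjustment depends on that share, so these rates need not hold for the data.

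The letters recur in both regions. Deviations of same-letter arrays correlated at 0.01 to 0.05 over all genes and at 0.10 to 0.26 above the median level, so the pairing is uncertain, and the fit with the letter as a block is an alternative whose value is given for each of the 10 genes whose call it ends, and as counts for the lists. The other alternatives were the pseudocount, quantile, median and poly-A scaling, a filter on low signals, an intensity trend, a random block, each array left out, and the mean of a gene's probe sets. The genes, pathway lists and marker lists were chosen with earlier results of these data known. All 10 genes were named, as was every pathway gene that passed, with others named as not passing, up to 3 of the brightest genes of a marker list, and for like profiles the 5 highest correlations. The lists were also computed under each scaling and with the block, checks added after seeing the data.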

Additional observations from a re-analysis of the deposited data

How the results depend on the processing

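Over the alternatives, 9 of the 10 genes kept the direction of their log2 change, and Tgfbi was at 0.23 on the poly-A scale. Tgfb3, Ltbp3 and Tgfb1 kept their calls without each single array. Of the 10 genes, 7 rose and 0 fell on the poly-A scale, 7 and 2 with an intensity trend, and 2 and 0 with the replicate block; without 1 array, 2 (central B left out) to 4 rose and 1 to 2 fell (2 only without endosteal C). Of all genes, 12226 rose and 21 fell on the poly-A scale, and 951 rose and 1786 fell after median centring. These counts were 2215 and 1693 with an intensity trend, and 143 and 6 with the replicate block. With pseudocount 64, 1105 fell, with the random block 945, and of 9096 genes above the median level 1725. Without 1 array 549 to 928 rose and 101 to 307 fell, lowest without central B and highest without endosteal C. Of the 27 probe sets, 3 rose with pseudocount 1 and 16 on the poly-A scale, 0 rose and 0 fell with the replicate block, 5 fell with pseudocount 64, 4 after median centring, 6 above the median level, 6 with an intensity trend and 0 on the poly-A scale, and without 1 array 0 to 3 rose and 0 fell. Without 1 array, 210 to 868 of all 45037 probe sets rose and 5 to 181 fell. Of these 45037, 857 rose with pseudocount 1, 26226 rose and 29 fell on the poly-A scale, and 0 passed with the replicate block. With pseudocount 64, 1466 of them fell, after median centring 1927 and with an intensity trend 2913. Of 22518 probe sets above the median level, 2715 fell. Of the 35 pathway genes, 28 rose on the poly-A scale and 3 with the replicate block, and 5 to 9 without 1 array; 2 fell with pseudocount 64, 4 after median centring, 5 above the median level, 5 with an intensity trend, 1 with the random block and 0 to 1 without 1 array. Probe sets that turned on the poly-A scale were Tgfb1 1445360_at (0.20), Tgfb2 1438303_at (0.49) and 1450922_a_at (0.53), Ltbp1 1419786_at (0.73) and Tgfbi 1448123_s_at (0.23), 1456250_x_at (0.38) and 1437463_x_at (0.59). Ltbp1 1447547_at was at -0.090 without endosteal array B (1.10 without endosteal A), 1419786_at at 0.0054 and -0.65 likewise, and Tgfbr2 1425444_a_at at -0.038 after median centring. The cause of these shifts was not tested, beyond the scale factor itself and the fewer arrays. Tgfb2 and Tgfb3 gave no value when the fit was limited to genes above the median level, since their mean over all arrays lies below it, and signals this low limit what these arrays can show.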
